A study of Mus musculus with 244 samples.

Results

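Macrophages sorted from mouse aortic arches in regression of atherosclerosis were sequenced 1 cell at a time, and 2 separate stretches of the sample numbers, 93 to 111 and 168 to 244, carry the same labels. The cells were taken by sample number alone, and those with at least 1000 genes at an RPKM of 1 or more were kept. RPKM is a number of reads corrected for library size and transcript length, and a gene at an RPKM of 1 or more is called listed in a cell. This left 18 of 19 cells in stretch 93–111 and 75 of 77 in stretch 168–244, together 93 of the 238 cells kept in the whole series. Donors were Apoe-/- mice, which lack the lipid carrier apolipoprotein E, on high fat diet over 16 weeks. For both stretches the diseased donor arch had been grafted into a WT recipient on chow, and cells were harvested 3 days later and sorted as CD45+, CD11b+ and F4/80+. Baseline cells, numbered 21 to 92 and 112 to 167, came from donors without grafting, and a further 20 regression cells are numbered 1 to 20. The labels name no strain, sex or animal, and do not say whether a stretch of numbers is 1 chip, 1 animal or 1 day. The extraction text speaks of islet cells, whereas every other label speaks of macrophages.

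Each stretch therefore counts as 1 sample. No test was made, SDs are over cells, and stretch cannot be told apart from animal, chip or run. Levels are log2(RPKM + 1), which is per transcript length, and a difference is the mean of cells 93–111 minus the mean of cells 168–244. It understates the difference of low genes. In this mixed population, fewer cells that express a gene and less RNA per cell are separated only as far as the share of cells shows. Intervals on shares are exact 95% binomial intervals, and they cover counting error only.

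Cells 93–111 listed fewer genes. The number per cell was 1311 at the lowest, 1892.5 at the median and 2943 at the highest in 93–111, against 1244, 2399 and 4107 in 168–244. The 2 ranges overlapped, but no cell of 93–111 passed 2943 genes. Estimated depth did not run the same way: it was 0.588, 1.25 and 2.46 M reads (lowest, median, highest) in the 15 cells of 93–111 for which it could be read, and 0.400, 0.763 and 3.81 M reads in 61 cells of 168–244. Ribosomal protein genes took a median of 12.4% of the summed RPKM in 93–111 and 13.3% in 168–244, and mitochondrial genes 6.24% and 8.48%. Because genes per cell move with the stretch, the comparisons of genes and lists were repeated with the 18 cells of 93–111 paired to 18 cells of 168–244 with like numbers of genes, whose median was 1912.5. Unless said otherwise a matched value is from these pairs, and the value with 2 cells of 168–244 for each cell of 93–111 is added where it differs much.

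**Figure D1:**
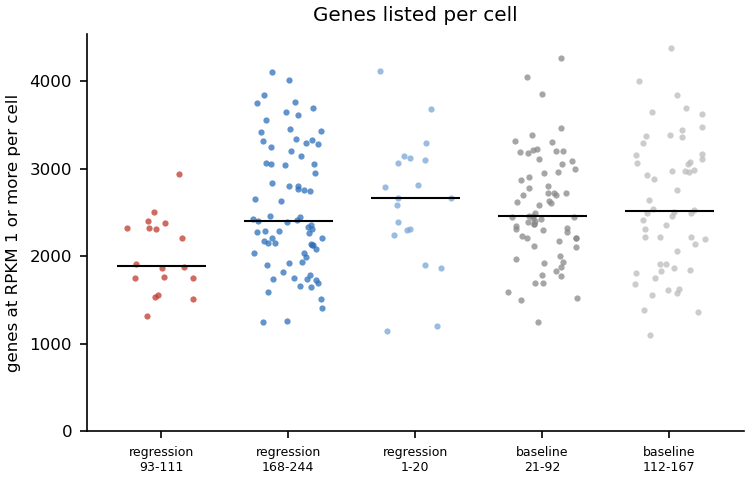
Genes at an RPKM of 1 or more in each kept cell (y axis, number of genes) by stretch of sample numbers (x axis); points are cells and bars are medians. The median of 93–111, 1892.5 genes, is below those of the other 4 stretches, which run from 2399 to 2669.

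The labels were checked against genes known to follow them. Apoe, disrupted in the donors, had a mean level of 12.18 ± 3.62 (SD, n = 18 cells) in 93–111 and 12.57 ± 1.72 (n = 75) in 168–244, against at most 7.49 in any baseline cell. At or below that baseline maximum were 2 of 18 cells in 93–111 and 1 of 75 in 168–244. At least 3 of 9 macrophage markers were listed in 17 of 18 and 75 of 75 cells. Of the sorted antigens, Ptprc (CD45) differed by -0.25, Adgre1 (F4/80) by -0.17 and Itgam (CD11b) by -1.24, and in matched cells by 0.43, 0.10 and -0.52.

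Genes had to be listed in 25% or more of the cells in 1 of the stretches to be compared, which 3910 were. Of these, 219 (5.60%) were higher in 93–111 by 1 or more on the log2 scale and 728 (18.6%) were lower. Of the genes past that size, 23.1% were on the higher side. In matched cells the balance turned over: 675 genes (17.3%) were higher and 461 (11.8%) lower, so that 59.4% of those past the size were higher. With 2 cells of 168–244 for each cell of 93–111, 593 genes (15.2%) were higher and 370 (9.46%) lower. The median difference of all these genes was -0.36 in all cells and 0.07 in matched cells. Of the 219 genes that were higher in all cells, 202 were also higher by 1 or more in matched cells. Of the 728 lower genes, 339 were, and 674 kept their sign.

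**Figure D2:**
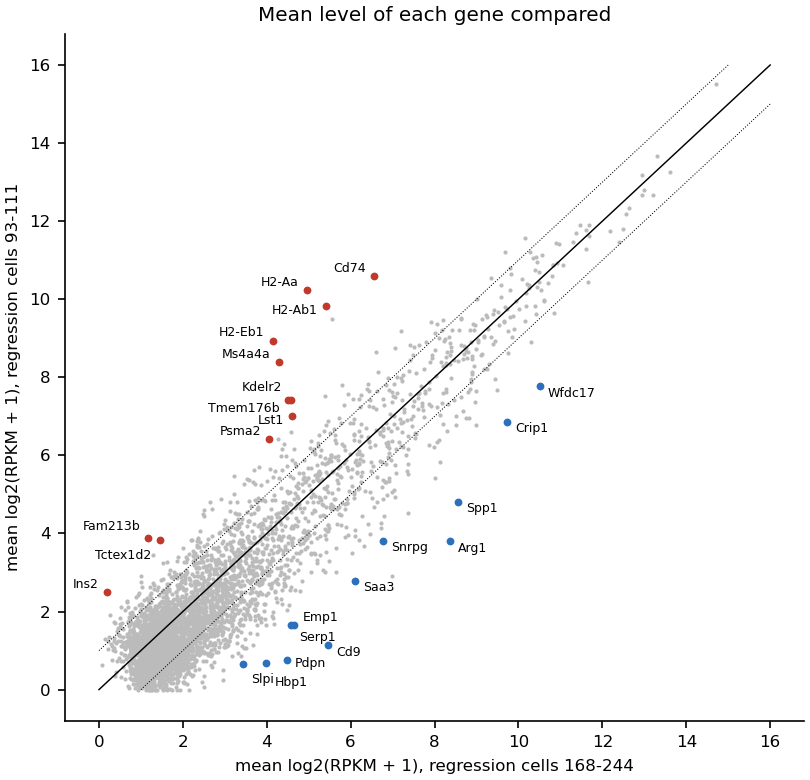
Mean log2(RPKM + 1) of each of 3910 genes in cells 168–244 (x axis) and cells 93–111 (y axis); the solid line marks equal levels and the dotted lines a difference of 1. The 12 genes highest in 93–111 by the naming rule are red and the 12 lowest blue; the class II genes H2-Aa, H2-Ab1, H2-Eb1 and Cd74 sit far above the line, and Cd9, Arg1 and Spp1 far below it.

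MHC class II genes made up 4 of the 5 largest positive differences among the genes named by rule. Class II molecules are paired alpha and beta chains that carry peptides from endocytosed proteins to the cell surface for CD4 T cells. The invariant chain Cd74 guards their groove on the way, and the H2-DM proteins exchange its last fragment for peptide. Macrophages differ in how much class II they carry, and in the arterial wall class II is a common divider of macrophage states. The chain genes lie together in the major histocompatibility complex and share promoter elements, an X box and a Y box, that the CIITA complex works through. The promoters of 3 class II genes that were higher in 93–111 are shown as examples. Others that were higher, such as H2-Ab1 and Cd74, are not shown, so the 3 do not stand for all. Each is the stretch of 150 bases before the RefSeq start site, on build GRCm38.p6, with the Y box core ATTGG, its other-strand form CCAAT and the X box letters AACTGATG in capitals.
H2-Aa (chr17:34287824-34287973, minus strand): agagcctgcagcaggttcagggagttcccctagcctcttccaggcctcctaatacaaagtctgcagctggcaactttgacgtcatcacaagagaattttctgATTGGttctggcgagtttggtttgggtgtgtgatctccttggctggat
H2-Eb1 (chr17:34305717-34305866, plus strand): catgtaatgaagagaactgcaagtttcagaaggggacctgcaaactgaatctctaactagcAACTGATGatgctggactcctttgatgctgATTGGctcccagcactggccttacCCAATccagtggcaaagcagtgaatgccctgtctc
H2-DMb1 (chr17:34153041-34153190, plus strand): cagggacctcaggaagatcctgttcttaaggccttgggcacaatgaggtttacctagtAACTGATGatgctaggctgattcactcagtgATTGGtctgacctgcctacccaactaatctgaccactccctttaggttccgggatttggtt
The Y box core starts at -48, -59 and -61 from the start site in H2-Aa, H2-Eb1 and H2-DMb1. AACTGATG starts at -89 in H2-Eb1 and at -92 in H2-DMb1, and these letters are not in the H2-Aa window. Searched on both strands in 32851 promoters of this length, the Y box core was in 24.5%, AACTGATG in 0.377% and both in 0.0974%. The motifs do not overlap one another, and a match is a description only.

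H2-Aa, the class II alpha chain of I-A, ran from 0.85 through a median of 12.23 to 14.30 in cells 93–111. In cells 168–244 it ran from 0.00 through 1.41 to 14.23. The highest cells were alike, and more of the cells of 93–111 had the gene: H2-Aa was listed in 17 of 18 cells (94.4%, 72.7 to 99.9) against 42 of 75 (56.0%, 44.1 to 67.4). It was at an RPKM of 10 or more in 83.3% of cells 93–111 and 46.7% of cells 168–244. The mean difference was 5.27, and 3.75 in matched cells. H2-Ab1, its beta chain, had medians of 11.91 in 93–111 and 4.39 in 168–244 and a difference of 4.41, or 2.42 in matched cells. H2-Eb1, the beta chain of I-E, had medians of 11.34 and 0.76 and a difference of 4.80, or 3.09 matched. Cd74 had medians of 13.02 and 7.27 and a difference of 4.04, or 2.90 matched. The log2 ratio of mean RPKM is also taken over all kept cells, so it too depends on the share of cells with the gene. On that ratio the 4 differences were smaller, from 1.82 to 2.09.

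The other members of the presentation list differed less. H2-DMb1 was higher by 1.61 and H2-DMa by 1.12, and 1.91 and 1.44 in matched cells. H2-DMb2, a near copy of H2-DMb1 with which it may share reads, was listed in 38.9% of cells 93–111 and 8.00% of cells 168–244. The costimulatory ligands Cd80 and Cd86 differed by 0.90 and 0.63, and by 0.83 and 1.09 in matched cells. The peptide-processing genes Ctss and Ifi30 differed by -0.30 and -0.65, and by -0.24 and 0.23 in matched cells. Ciita, the class II transactivator, was listed in 5.56% and 6.67% of cells, too few to compare. In all, 6 of the 14 members listed in 5% or more of either stretch were higher by 1 or more and none was lower, beside 2.43% higher and 8.04% lower among the 9681 genes under the same filter. In matched cells 8 were higher and none lower, beside 7.90% and 6.04%. The list's median was 0.86, and 1.07 in matched cells, against -0.20 and 0.02 for all those genes. In all cells, 219 of the 235 higher and 728 of the 778 lower genes of the 9681 were among the 3910 listed in 25% or more of cells. Of those 3910, 5.60% were higher and 18.6% lower, or 17.3% and 11.8% in matched cells. For lists of widely listed genes, here and below, these larger shares are the closer measure.

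Counted per cell, H2-Aa, H2-Ab1, H2-Eb1 and Cd74 were all at an RPKM of 10 or more in 14 of 18 cells 93–111 (77.8%, 52.4 to 93.6). The same held for 27 of 75 cells 168–244 (36.0%, 25.2 to 47.9), and for 9 of 18 of them after matching (50.0%, 26.0 to 74.0). These intervals cover counting error over cells only, so whether they overlap is no test of the stretches. None of the 4 genes reached 10 in 3 of 18 and 21 of 75 cells. Within the cells that had all 4, their mean level was 12.35 ± 1.43 (SD, n = 14 cells) in 93–111 and 11.12 ± 1.71 (n = 27) in 168–244. Cells with all 4 genes made up 8 of 20 in regression cells 1–20 (40.0%), 51 of 69 in baseline cells 21–92 (73.9%) and 38 of 56 in baseline cells 112–167 (67.9%). By this count the share in 93–111 was near those of the baseline stretches, and the share in 168–244 near that of cells 1–20. The 4 genes are among the 12 highest differences between 93–111 and 168–244. The count therefore cannot tell which stretch another resembles.

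**Figure D3:**
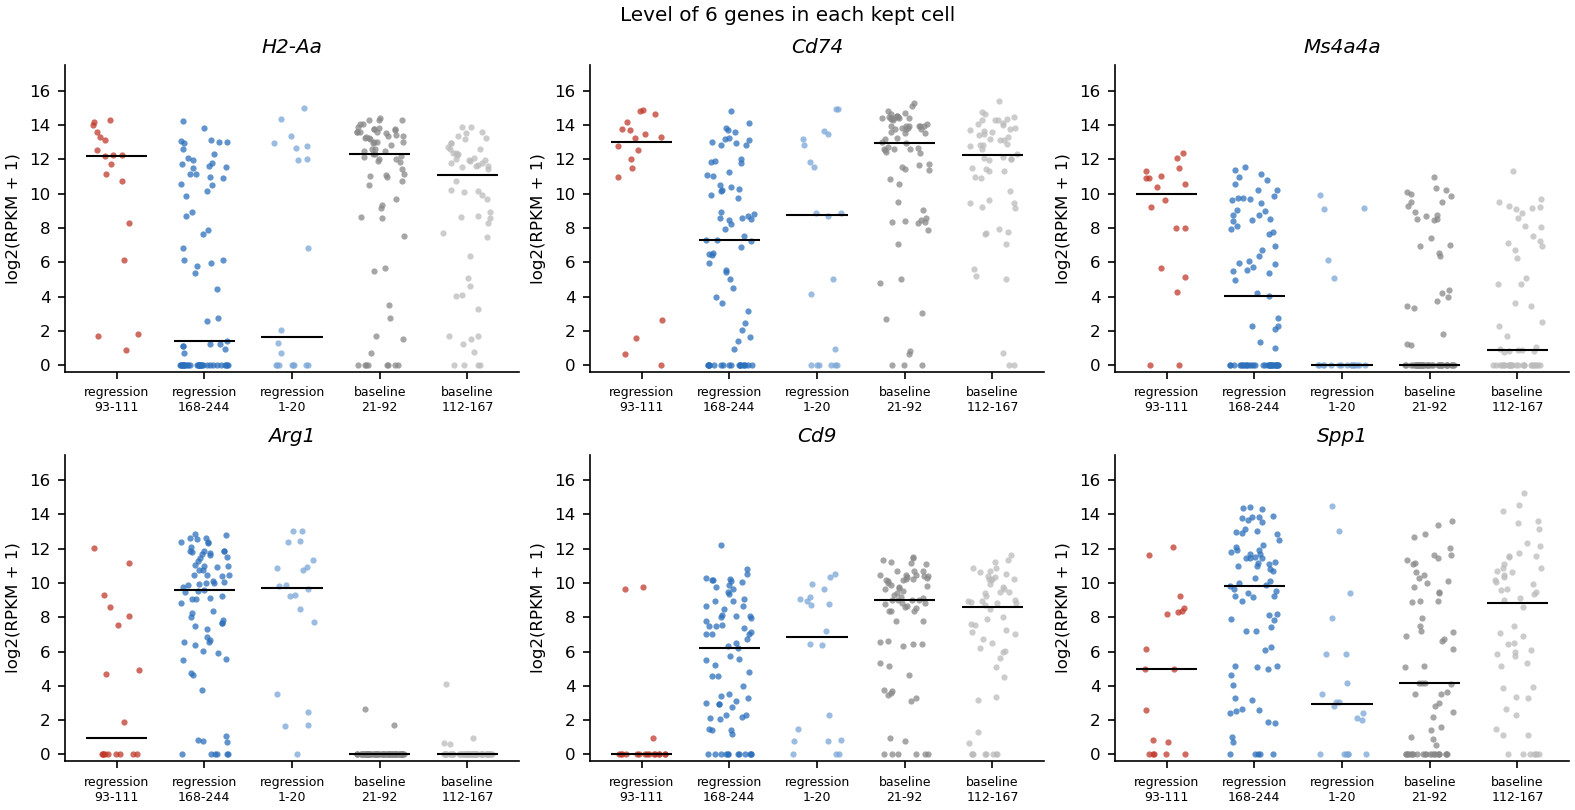
Level of 6 genes, as log2(RPKM + 1) on the y axis, in each kept cell of the 5 stretches on the x axis; bars are medians. H2-Aa and Cd74 are high in most cells of 93–111, with a few low cells, and split high and low in 168–244. Ms4a4a has its highest median in 93–111, and Cd9 is at or near 0 in 16 of 18 cells of 93–111.

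Ms4a4a, a tetraspanning membrane protein of the Ms4a family (chr19:11375488-11392915), was the highest gene outside class II. Its level ran from 0.00 through a median of 10.01 to 12.39 in 93–111 and from 0.00 through 4.01 to 11.58 in 168–244. It was listed in 16 of 18 cells against 43 of 75, and 16 of 18 cells lay above the median of 168–244. The difference of 4.09 was 5.32 in matched cells. Unlike class II, Ms4a4a was also far above baseline, where its mean was 2.95 in cells 21–92 and 3.16 in cells 112–167, and above the 1.97 of regression cells 1–20. All 14 cells of 93–111 with the 4 class II genes had Ms4a4a at an RPKM of 10 or more, as did 10 of the 27 such cells in 168–244. Of the cells with none of the 4 at 10, 2 of 3 in 93–111 and 11 of 21 in 168–244 had it. Ms4a4a was thus not confined to cells with class II in either stretch. Its neighbours in the family, chosen after their values were seen, were mixed in all cells: Ms4a6b was higher by 2.17 and Ms4a4c by 1.20, whereas Ms4a6d and Ms4a7 differed by -0.04 and -0.10. In matched cells all 4 were on the higher side, by 3.27, 1.66, 1.77 and 1.00. Reads of these related genes may be shared.

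Tmem176b, a membrane protein of antigen-presenting cells, had medians of 6.99 in 93–111 and 2.41 in 168–244 and a difference of 2.93, or 2.42 in matched cells. Kdelr2, a receptor that returns proteins to the endoplasmic reticulum, had medians of 7.82 and 5.90 and a difference of 2.85, or 5.13 matched. Lst1, a leukocyte gene of the class III region of the histocompatibility complex, had medians of 8.93 and 5.58 and a difference of 2.42, or 2.50 matched. Psma2, a proteasome subunit, differed by 2.36, or 3.10 matched. Fam213b and Tctex1d2 differed by 2.71 and 2.38, or 3.50 and 2.95 matched, and were listed in fewer cells, 44.4% and 55.6% of 93–111 against 20.0% and 24.0% of 168–244. Each of these 6 genes was higher in 93–111 under all 12 alternative settings. For Kdelr2 the mean in 93–111, 7.42, lay close to that of baseline cells 112–167, 7.36, and 168–244 had the lowest mean of the 5 stretches, 4.57.

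Receptors for antibody and parts of the phagocyte oxidase differed in both directions. Fcgr3, a low-affinity IgG receptor, ran from 4.62 through 9.75 to 11.41 in 93–111 and from 0.00 through 8.87 to 11.44 in 168–244, a difference of 1.31 that was 2.07 in matched cells. Fcgr4 was higher by 1.11, and the oxidase partner Rac2 by 1.39, or by 1.73 and 2.94 in matched cells. The oxidase subunits Cybb, Ncf1 and Ncf4 were lower by 1.07, 1.02 and 1.09, and by 1.19, 1.02 and 1.62 in matched cells. With 2 cells of 168–244 for each cell of 93–111, Ncf1 and Ncf4 differed by -0.46 and -0.70. The signalling chains Fcer1g and Tyrobp, listed in every cell of both stretches, differed by 0.17 and 0.34, or 0.20 and 0.79 matched. The list's median was 0.32, or 0.79 in matched cells.

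The lowest gene of 93–111 was Arg1, arginase 1, which breaks down arginine and marks a wound-healing form of macrophage activation (chr10:24915207-24927470). In 93–111 it ran from 0.00 through a median of 0.95 to 12.07, and in 168–244 from 0.00 through 9.59 to 12.87. It was listed in 9 of 18 cells (50.0%, 26.0 to 74.0) against 66 of 75 (88.0%, 78.4 to 94.4). The difference was -4.57, and -4.19 in matched cells. Regression cells 1–20 had a mean of 8.42, like the 8.37 of 168–244, and the baseline stretches 0.06 and 0.11. Cells 93–111 with a mean of 3.80 thus lay between the other regression cells and baseline. Of 12 listed members of the alternative activation list, Arg1 was the only 1 lower by 1 or more and none was higher, beside 8.04% and 2.43% of the 9681 genes, so that the count itself is near the background. In matched cells Ccl24, a chemokine of that list, passed the size as well, at -1.26. Arg1 was at an RPKM of 10 or more in 6 of the 14 cells of 93–111 with all 4 class II genes and in 20 of the 27 such cells of 168–244. Of the cells with none of the 4 at 10, 1 of 3 in 93–111 and 20 of 21 in 168–244 had it.

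Cd9, a tetraspanin of the plasma membrane that is raised in lipid-laden macrophages (chr6:125460266-125494760), was close to absent from 93–111. Its level ran from 0.00 through 0.00 to 9.75 in 93–111 and from 0.00 through 6.22 to 12.20 in 168–244. It was listed in 2 of 18 cells (11.1%, 1.38 to 34.7) against 63 of 75 (84.0%, 73.7 to 91.4). The difference was -4.32, and -3.10 in matched cells. Both baseline stretches and regression cells 1–20 were high, with means of 7.65, 7.05 and 5.57, so 93–111 was the stretch set apart, as it was for Ms4a4a. Spp1, osteopontin, ran from 0.00 through 4.99 to 12.11 and from 0.00 through 9.81 to 14.46, a difference of -3.75, or -2.32 matched. Its mean of 4.81 in 93–111 was within the range of the other stretches, 3.99 to 8.56, in which it varied widely. The fatty acid translocase Cd36 was lower by 2.28 and lipoprotein lipase, Lpl, by 1.23, and by 2.03 and 1.95 in matched cells. Trem2, the lipid receptor that defines this state, differed by 0.02, or 0.41 matched. Gpnmb differed by -0.65, by -0.15 in matched cells and by -0.68 with 2 cells of 168–244 for each. Of 14 listed members of the lipid-laden list none was higher by 1 or more and 5 were lower, beside 2.43% and 8.04% of all genes. In matched cells 1 was higher and 4 lower, beside 7.90% and 6.04%. The list's median was -0.75 in all cells, -0.10 in matched cells and -0.42 with 2 cells of 168–244 for each.

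Acute phase and alarmin genes had the lowest median of the 30 lists, -1.72, or -1.06 in matched cells, with 7 of 10 listed members lower by 1 or more, beside the 8.04% of all genes, and 5 in matched cells, beside 6.04%. Saa3, a serum amyloid A made by macrophages themselves, ran from 0.00 through 0.00 to 12.80 in 93–111 and from 0.00 through 7.11 to 15.62 in 168–244. It was listed in 5 of 18 against 43 of 75 cells, and the difference of -3.30 was -5.04 in matched cells. Slpi, a secreted inhibitor of leukocyte proteases, was listed in 1 of 18 and 32 of 75 cells and differed by -2.78, or -3.56 matched. S100a4, a calcium-binding protein of motile cells, was lower by 2.47 and haptoglobin, Hp, by 1.87, or by 2.10 and 1.51 matched. Anxa1 was lower by 2.36 in all cells and by 0.28 in matched cells. Wfdc17, a relative of Slpi, had medians of 9.28 and 11.30 and a difference of -2.74, or -3.60 matched.

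Pdpn, the membrane glycoprotein podoplanin, was listed in 2 of 18 cells of 93–111 and 43 of 75 of 168–244 and differed by -3.73. In matched cells it differed by -3.01, and by -2.36 with 2 cells of 168–244 for each. Emp1, an epithelial membrane protein, differed by -3.02 and Hbp1, a transcriptional repressor, by -3.29, or by -2.61 and -3.50 matched. Crip1, a LIM domain protein, was listed in 13 of 18 cells of 93–111 and in all 75 of 168–244, and differed by -2.87, or -2.91 matched. The splicing protein gene Snrpg and the stress-associated Serp1 differed by -2.97 and -2.92, or by -2.57 and -3.30 matched. All 12 of the lowest named genes, like the 12 highest, kept their sign under every one of the 12 alternative settings run on them. The naming rule had already required that sign in cells matched 1 to 1. The other settings reuse the cells in which the genes were picked, so this is not independent support. The size moved by more than 1.5 times under at least 1 setting for 12 of the lowest and 10 of the highest.

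Genes of resident and recruited macrophages were lower in part. All 14 listed members of the resident list had a negative difference, as had 6296 of the 9681 genes, and 6 were lower by 1 or more, beside 8.04%. In matched cells Mrc1 and Maf, a macrophage transcription factor, were above 0, and again 6 were lower by 1 or more, beside 6.04%. The list's median was -0.99, or -0.82 in matched cells. F13a1, the coagulation factor XIII A chain, differed by -1.71, and in matched cells by -1.94. The scavenger receptor Stab1 and the folate receptor Folr2 differed by -1.67 and -1.71, or by -0.83 and -0.80 matched. Cd163, Fcna and Ccl8 were listed in 0 of 18 cells of 93–111 and in 17.3%, 14.7% and 12.0% of 168–244. A count of 0 of 18 allows a share of up to 16.7% (3 of 18 cells), or 18.5% by the exact interval. The mannose receptor Mrc1 differed by -0.13, or 0.74 matched. Among genes of monocytes and their recruitment, Fn1, fibronectin, was lower by 2.30 and the coagulation factor F10 by 2.46, and by 2.14 and 1.60 in matched cells. Ccr2, the receptor that brings monocytes into tissue, was higher by 1.04 and was listed in 18 of 18 cells against 86.7% of 168–244. Its difference was 0.44 in matched cells, 1.16 with 2 cells of 168–244 for each, and 0.40 as the log2 ratio of mean RPKM. Plac8 and Ly6c2 were higher by 1.34 and 1.15, or 2.67 and 1.20 matched, Ly6c2 in 11.1% against 2.67% of cells. The median of the monocyte and recruitment list was -0.41, or -0.30 in matched cells, and 11 of its 15 listed members were below 0. By 1 or more, 3 were higher and 4 lower, beside 2.43% and 8.04% of all genes. In matched cells these counts were again 3 and 4, beside 7.90% and 6.04%.

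The medians of several metabolic lists came nearer to 0 in matched cells. Lysosomal genes had a median of -0.88 in all cells, -0.05 in matched cells and -0.50 with 2 cells of 168–244 for each. Of 19 listed, 1 was higher by 1 or more and 9 lower, beside 2.43% and 8.04% of all genes. In matched cells 2 were higher and 4 lower, beside 7.90% and 6.04%. Among the 3910 more widely listed genes these shares were 5.60% and 18.6%, or 17.3% and 11.8% in matched cells. Lipa, the acid lipase that frees cholesterol from its esters, was lower by 2.31, or by 1.24 matched, and the legumain gene Lgmn was higher by 1.28, or 1.88. Genes of glycolysis and hypoxia had a median of -0.67, or -0.33 in matched cells. Of 20 listed, 1 was higher by 1 or more and 9 lower, and in matched cells 2 and 4, beside the same shares of either set of genes. Pgam1, a glycolytic mutase, differed by -2.55, or -3.01 matched, Ldha, lactate dehydrogenase A, by -2.11, or -0.24, and the enolase gene Eno1 by 1.25, or 3.75. Gapdh differed by 0.03, or -0.19 matched. The 16 listed mitochondrial genes behaved otherwise: their median was -0.62 in all cells and -0.93 in matched cells, with ND5 and ND6, subunits of respiratory complex I, lower by 2.58 and 2.19, or 2.32 and 2.28 matched. Ribosomal protein genes, 80 of them, had a median of -0.05, or -0.11 matched.

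**Figure D4:**
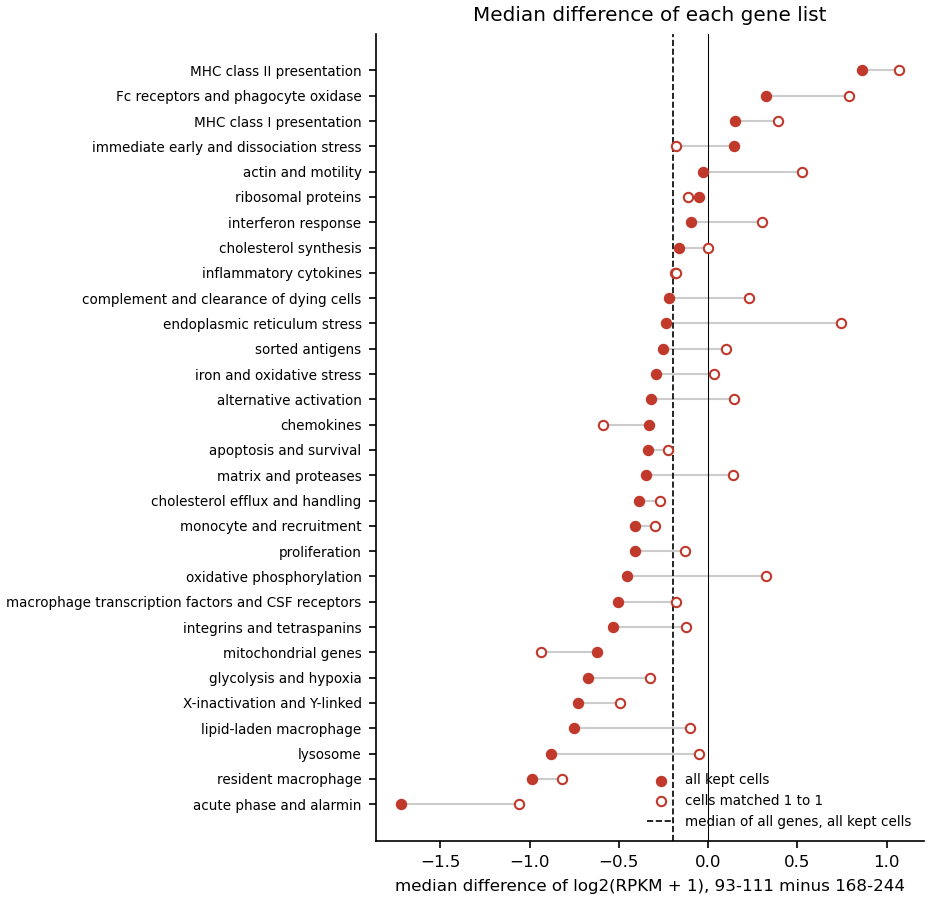
Median difference in log2(RPKM + 1), 93–111 minus 168–244 (x axis), of the listed members of each of 30 gene lists (y axis), in all kept cells (filled) and cells matched on genes (open); the dashed line is the median of 9681 genes, -0.20. MHC class II presentation is highest and acute phase lowest in both.

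Chemokines and cytokines held members on either side in all cells, and chemokines lay lower in matched cells. Ccl3, a chemokine for monocytes and T cells, was higher by 1.90, or 0.93 matched, and Il1b, interleukin 1 beta, by 1.27, or 2.20. Ccl9, Ccl2 and Ccl6 were lower by 1.72, 1.54 and 1.18, or by 1.49, 1.30 and 1.08 matched. With 2 cells of 168–244 for each, Ccl2 was lower by 0.67 and Ccl3 higher by 1.97. Of 16 listed chemokines 1 was higher by 1 or more and 4 lower, beside 2.43% and 8.04% of all genes. In matched cells none was higher and 6 were lower, beside 7.90% and 6.04%. The chemokine median was -0.33 in all cells, -0.59 in matched cells and -0.13 with 2 cells of 168–244 for each. Of 13 cytokine genes 1 was higher and 1 lower, and in matched cells 2 and none, so few that they are near the shares of all genes. Genes of cholesterol efflux and handling had a median of -0.39, or -0.27 matched, with 4 of 15 lower and none higher. In matched cells 2 were lower and 2 higher, the sterol carrier Npc2 by 1.86 and the exporter Abcg1 by 1.06. The synthesis genes had a median of -0.16, or 0.00 matched, with none of 13 past 1.

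Markers of other cell types were counted in both stretches. At least 3 of 10 conventional dendritic cell markers were listed in 0 of 18 and 0 of 75 cells, and Flt3, Zbtb46, Xcr1, Clec9a and Ccr7 in no cell of 93–111. The summed log2 level of that list ran from 0.00 to 6.80 in 93–111 and from 0.00 to 16.47 in 168–244. At least 3 of 6 classical monocyte markers were listed in 9 of 18 cells (50.0%) and 24 of 75 (32.0%), and at least 3 of 8 neutrophil markers in 6 of 18 (33.3%) and 9 of 75 (12.0%). With the bar at an RPKM of 10, both orders turned over: 2 of 18 and 16 of 75 cells had 3 monocyte markers, and 0 of 18 and 5 of 75 had 3 neutrophil markers. Low listed values thus carried these shares in 93–111, where S100a9 was listed in 50.0% of cells but reached 10 in 11.1%. Natural killer cell, erythroid and adipocyte markers were listed in no cell of 93–111. Cells with monocyte markers were kept in the last comparison. Without the cells that had 3 markers at 10 of a type other than macrophages or monocytes, which were the 5 with neutrophil markers and left 18 and 70 cells, H2-Aa differed by 5.19, Arg1 by -4.78 and Cd9 by -4.20.

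The 219 higher and 728 lower genes were set beside the 3 other stretches. Of the higher genes, the mean in baseline cells 21–92 lay between the 2 regression stretches for 126, at or beyond 93–111 for 33 and at or beyond 168–244 for 60. For cells 112–167 the counts were 129, 28 and 62, and for regression cells 1–20 they were 100, 32 and 87. Of the lower genes, the mean in regression cells 1–20 lay between for 324, at or beyond 93–111 for 40 and at or beyond 168–244 for 364. For baseline cells 21–92 these counts were 446, 59 and 223, and for cells 112–167 they were 447, 56 and 225. Over these genes no other stretch stood mostly on the side of 93–111. The genes were picked by the difference between the 2 stretches, and 93–111 has far fewer cells than 168–244. That choice alone favours places between them or beside 168–244, so the counts cannot tell which stretch another resembles. Cells 1–20 and 168–244 have more genes per cell than 93–111, and the part of this in these counts was not tested.

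Ins2, an insulin gene of pancreatic beta cells, was among the 12 highest genes although its level was low. It was listed in 14 of 18 cells of 93–111 (77.8%, 52.4 to 93.6), at an RPKM from 1.95 through a median of 9.29 to 24.8. In 168–244 it was listed in 8 of 75 cells (10.7%, 4.72 to 19.9), at most at 3.97. The difference was 2.32, or 2.13 matched. In the other stretches Ins2 was listed in 1 of 20 regression cells 1–20, in 0 of 56 baseline cells 112–167 and in 14 of 69 baseline cells 21–92. Those 14 were all among the 21 cells numbered 72 to 92, and 0 of the 48 cells before them listed it. That boundary and the other islet genes were chosen after the values were seen. Ins1 was listed in 3, Iapp in 3, Sst in 2 and Gcg in 1 of the 18 cells of 93–111, and Pdx1, Chga and Ppy in none. In 168–244 Ins1 was listed in 4, Iapp in 1, Sst in 1 and Gcg in 0 of 75 cells. Of the 21 cells numbered 72 to 92, Ins1 and Iapp were each listed in 1, and Sst and Gcg in 0. Thus the numbers 72 to 111, which cross from baseline to regression, share a low Ins2 signal, and the extraction text names islet cells. The part of either in the other differences was not tested.

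**Figure D5:**
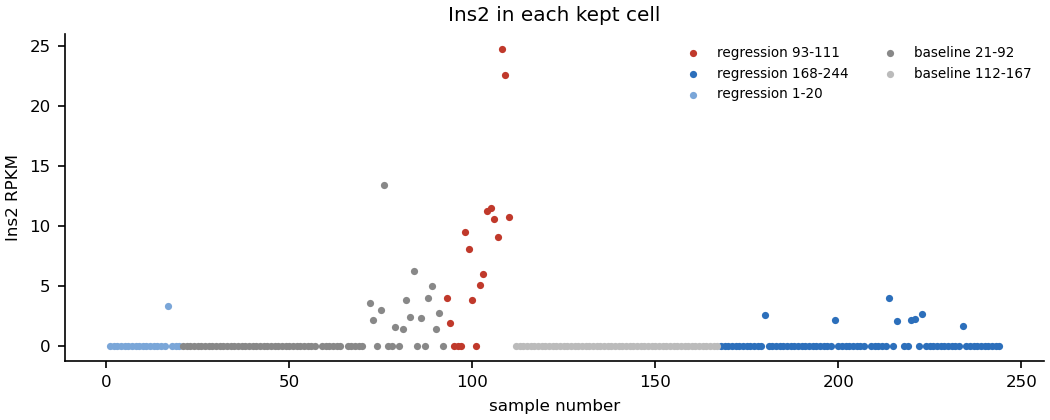
RPKM of Ins2 (y axis) in each kept cell by sample number (x axis), coloured by stretch. Values above 0 gather in numbers 72 to 111, where the highest cell reads 24.8, and no cell numbered 21 to 71 or 112 to 167 lists the gene.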

How the data were processed

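The authors deposited 1 table of RPKM values for 24475 genes and 244 libraries. Per the labels' protocols, cells were captured on a Fluidigm C1 circuit, SMARTer chemistry turned their RNA into full-length cDNA, and Nextera XT was used for the libraries. Per the submitters' processing notes, the build is mm10 and CASAVA 1.8.2 and FastQC were used. The names of the aligner, annotation and quantifier were not given in the sources used here. Without molecular identifiers, amplification noise cannot be removed from a value.

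Columns were matched to samples by the number in the title. Of baseline libraries, 3 near-copy pairs (correlation above 0.9) were averaged; no 2 regression libraries correlated above 0.649. The cell filter was 1000 genes, each at an RPKM of 1 or above. Differences are of mean log2(RPKM + 1), computed with numpy 2.4.6, pandas 2.3.3 and scipy 1.17.1. RPKM are not counts, and each stretch is 1 sample, so there is no test. Matched cells were paired 1 to 1, or 1 to 2, by optimal assignment on log2 of genes detected, with a limit of 0.2 for 1 to 1. Depth was read from the spacing of low values in genes with 1 transcript in GENCODE vM21, for cells in which 2 gene sets gave depths within 5% of each other. Doublets were not called.

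The genes named are the 12 highest and 12 lowest differences with the same sign in the share of cells and in matched cells. Predicted, ribosomal, mitochondrial, Y-linked and immunoglobulin genes are left out of these. It further names 2 genes per list, those of largest difference, and 11 genes chosen by name. Other members printed were picked as examples with their values in view. The stretches, the 30 gene lists and the 17 marker lists were chosen with earlier results of these data known. Mitochondrial genes were to be taken by symbols starting with mt-, but the table names them otherwise, so the 37 genes on its mitochondrial chromosome were used. Gene positions and promoters are from RefSeq, GRCm38.p6, the same assembly as mm10. The steps were tested on a simulated table. Alternatives were the pseudocount, scaling of cells, filters on cells and genes, matched cells and the ratio of means; leaving out cells with low Apoe or other markers, and setting values under 10 to 0, were added after seeing the data.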

Additional observations from a re-analysis of the deposited data

How the results depend on the processing

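Counts of genes past a difference of 1 depended on the choice of cells and scale. Against 219 higher genes, cells matched 1 to 1 gave 675, cells matched 1 to 2 gave 593, a pseudocount of 0.1 gave 412, a pseudocount of 10 gave 72, the log2 ratio of mean RPKM + 1 gave 515. Cells with at least 2000 genes, 8 and 57 of them, gave 671 higher and 972 lower among genes in 25% of those cells, and 480 and 892 among the 3910. Against 728 lower genes, the first 5 settings gave 461, 370, 1420, 135 and 1097. Rescaling each cell to a sum of 1000000 gave 237 and 870, and the median ratio 204 and 643. With 1 to 2 matching 61.6% of genes past the size were higher, with a pseudocount of 10 34.8%. Of 420 list medians under alternatives, 27 moved by 0.5 or more and 35, of 13 lists, changed sign. Under the ratio of means cholesterol synthesis came to -0.84 and proliferation to -1.99; the cause was not tested. Of 972 differences of named genes, 31 changed sign. For the 12 genes under 1 in size these were 23 of 144, and for the 69 genes of 1 or more 8 of 828: Psme2 to 0.00012 in cells matched 1 to 1, Eif2s3y to 0.054 in cells matched 1 to 2, and, with at least 2000 genes, Eif2s3y to 0.47, Apoc2 to 0.18, Cox5a to 0.23, H2afz to 0.088, Bcl2a1b to 1.34 and Vim to 0.24. The share of cells with 3 classical monocyte markers went to -10.2 percentage points and with 3 neutrophil markers to -6.67 at an RPKM of 10. With 2 markers, plasmacytoid dendritic cells came to 11.6 and platelets to -13.3 points. Without cells of low Apoe, which left 16 and 74, H2-Aa differed by 6.52 and Arg1 by -4.79. No paired analysis was possible because the stretches share no sample numbers and no test was made. The number of cells limits what is said of genes listed in few: by the limit of 3 cells, 0 of 18 allows a share of up to 16.7%, and 0 of 75 one of up to 4.00%. By the exact interval these limits are 18.5% and 4.80%.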

Other observations

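Between H2-K1 and H2-D1 on chromosome 17 (chr17:33996012-35267497, GRCm38.p6), 50 genes passed the filter of 5% of cells. Of these, 7 were higher in 93–111 by 1 or more (14.0%) and 2 lower (4.00%). Of the 43 that are not class II genes, 2 were higher and 2 lower (4.65% each): Lst1 by 2.42 and Aif1, the calcium-binding protein IBA1 of macrophages, by 2.11 were the higher ones, or by 2.50 and 2.53 in matched cells. On the rest of chromosome 17, 3.43% of 466 genes were higher and 5.79% lower.

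A retrogene and a pseudogene, picked with their values in view, differed from their parent genes. Rps27rt, a retrogene of Rps27, had a mean of 9.49 in 93–111 and 5.55 in 168–244, and Rps27 itself 10.54 and 9.33. The pseudogene Rpl34-ps1 had 2.91 and 7.00, and Rpl34 9.03 and 8.35. Such copies can share reads, and how the counting split them is not given, so these values are uncertain.

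Other lists, given as values, changed sign between all cells and matched cells. Genes of endoplasmic reticulum stress had a median of -0.24 in all cells and 0.75 in matched cells, with 5 of 14 higher by 1 or more and 1 lower after matching, beside 7.90% and 6.04% of 9681 genes. Oxidative phosphorylation genes had -0.45 and 0.32, and actin and motility genes -0.03 and 0.53. Xist was listed in no cell of either stretch, and Ddx3y, a Y-linked helicase, in 44.4% of cells 93–111 and 60.0% of cells 168–244.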
